A study of Mus musculus with 6 samples.

Results

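The 9 genes described here are components and targets of the YAP and TEAD pathway, measured by RNA sequencing in heart preparations of mice described as C57BL/6J. They were chosen by symbol from a table of 32479 rows. Each symbol stood on 1 row, and all 9 were among the 10995 rows that were tested because their mean level reached 1 FPKM (fragments scaled to the length of the gene model and to the mapped fragments of the library). The study set 3 control mice beside 3 that received carbon tetrachloride (CCl4), which is used to scar the liver, as a model of the effect of cirrhosis on the heart. Each library is labelled as primary cardiac fibroblasts. What the control mice received, the dose, route and duration of CCl4, and the age and sex of the mice are not stated in the labels.

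YAP (gene Yap1) and its relative TAZ (gene Wwtr1) are coactivators that do not bind DNA themselves. In the nucleus they act through TEAD transcription factors, of which Tead1 is a prominent one in heart muscle. The Hippo kinases LATS1 and LATS2 phosphorylate both coactivators, which keeps them in the cytoplasm, while tension on the actin cytoskeleton and growth signals favour their entry into the nucleus. Their best known targets include the secreted matricellular proteins CCN1 (CYR61) and CCN2 (CTGF), the angiomotin relative AMOTL2, which binds YAP and restrains it, and the ankyrin repeat protein ANKRD1. Lats2 is itself a target, so the pathway holds feedback loops. Because the activity of YAP and TAZ is set by phosphorylation and location, mRNA levels of the coactivators do not report it.

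The promoters of the targets Ccn1, Amotl2 and Ankrd1 are shown because a TEAD recognition sequence lies close to the start of each. The windows run from 250 bases before the annotated start to 50 after it, in RefSeq annotation on GRCm38.p6, and 7 of the 9 genes, all but Ccn2 and Tead1, matched an entry. Capitals mark GGAATG, the core of the TEAD site, or its reverse complement CATTCC. The sequences are written 5′ to 3′ on the strand of the gene.
Ccn1 (chr3:145649936-145650235, minus strand): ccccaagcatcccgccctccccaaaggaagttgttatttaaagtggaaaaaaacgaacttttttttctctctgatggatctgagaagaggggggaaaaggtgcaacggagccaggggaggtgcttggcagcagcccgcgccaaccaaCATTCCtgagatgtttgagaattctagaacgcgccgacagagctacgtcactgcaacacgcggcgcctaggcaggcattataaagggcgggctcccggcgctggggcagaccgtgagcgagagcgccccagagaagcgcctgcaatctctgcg
Amotl2 (chr9:102717554-102717853, plus strand): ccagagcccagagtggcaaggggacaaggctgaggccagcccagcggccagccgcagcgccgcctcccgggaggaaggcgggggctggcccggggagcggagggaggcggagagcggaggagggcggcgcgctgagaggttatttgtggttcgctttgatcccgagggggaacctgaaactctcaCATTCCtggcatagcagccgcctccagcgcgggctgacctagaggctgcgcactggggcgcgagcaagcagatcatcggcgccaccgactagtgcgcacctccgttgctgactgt
Ankrd1 (chr19:36119795-36120094, minus strand): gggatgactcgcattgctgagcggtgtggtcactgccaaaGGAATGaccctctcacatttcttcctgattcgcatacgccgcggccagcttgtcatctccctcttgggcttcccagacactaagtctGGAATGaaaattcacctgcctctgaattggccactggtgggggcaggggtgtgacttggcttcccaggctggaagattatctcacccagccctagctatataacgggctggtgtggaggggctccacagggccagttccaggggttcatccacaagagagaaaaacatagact

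The match began 103 bases before the start in Ccn1 and 65 bases before it in Amotl2. The Amotl2 window lies wholly inside the GENCODE M21 span of the gene, which begins at 102716672, so its distance refers to the RefSeq start. Ankrd1 held 2 matches, at 210 and 123 bases before the start. Its window also lies wholly inside the GENCODE M21 span, which reaches to 36120099, so these distances too refer to the RefSeq start. The window of Yap1 had 1 match at 141 bases before its start. Wwtr1 has 2 annotated starts with overlapping windows, and both windows held the match. Of the 2 annotated starts of Lats2, the window of 1 held a match, 5 bases after the start, and the window of the other had none. Both windows of Lats2 also lie inside its GENCODE M21 span. The window of Lats1 had no match. Thus 6 of the 7 matched genes had the letters in at least 1 window. Counted by window it was 7 of 9, with the 2 overlapping windows of Wwtr1 sharing a match, against 14.7% of all 32851 windows. These genes were listed because they are known pathway genes and targets, so those counts describe the list. Among the promoters of 11 other reported YAP targets 3 genes had a match, as did 4 of 23 genes of Hippo kinases and regulators and 4 of 22 immediate early genes. By window these were 3 of 12, 4 of 25 and 4 of 31. The AP-1 sequence TGANTCA (N is any base; its first 2 letters can be the last 2 of GGAATG), searched on both strands, was in none of the windows of the 7 matched genes and in 7.81% of all windows. A match is a run of letters and not a measured binding site, and its absence covers this window only.

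The strain is given in the design text only. Nnt, the mitochondrial transhydrogenase gene in which C57BL/6J mice are known to carry a deletion, stood on 2 rows, and GENCODE M21 holds 2 overlapping models of that name on the same strand, which the table does not pair with the rows. On the first row Nnt was at 59.5, 89.96 and 70.8 FPKM in control libraries and at 2.27, 2.39 and 2.87 FPKM in CCl4 libraries (log2 fold change -4.39 ± 0.15 (SE), limma adjusted p = 1.21e-05). On the second row it was at 69.2, 145.2 and 131.8 FPKM in control libraries and at 90.1, 105.6 and 105.7 FPKM in CCl4 libraries (log2 fold change -0.13 ± 0.25 (SE), limma adjusted p = 0.707). The groups did not overlap on the first row and overlapped on the second; this gene was singled out after its values were seen. Whether the groups differ in substrain was not tested, and any such difference cannot be told apart from CCl4 in the results below.

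Transcripts of heart muscle were abundant in every library, whatever the label. The summed level of 12 cardiomyocyte markers was 12113 to 14207 FPKM in control libraries against 14280 to 15811 FPKM in CCl4 libraries. That of 12 fibroblast markers was 480.4 to 778.6 FPKM in control libraries against 636.1 to 647.1 FPKM in CCl4 libraries. Of the 12, 6 were called higher in CCl4 (Col1a1, Col1a2, Col3a1, Lum, Dpt and Vim) and 0 lower. The 3 with a log2 fold change below 0, Dcn, Gsn and Pdgfra (-0.29, -0.18 and -0.11), were not called. Of the cardiomyocyte markers 2 were called higher and 0 lower. Over all tested rows 9.64% were called higher and 22.2% lower. No marker on the fibroblast, cardiomyocyte, endothelial, smooth muscle and pericyte, or macrophage lists was at 0 in any library. The 10 endothelial markers summed to 218.3 to 252.6 FPKM in control libraries against 227.2 to 248.4 FPKM in CCl4 libraries, with 1 called higher and 1 lower. The 9 smooth muscle and pericyte markers summed to 230.1 to 253.4 and 185.6 to 271.4 FPKM, with 3 called higher and 0 lower. Of those 3, Cnn1 had a control mean of 0.69 FPKM and reached the filter only through the CCl4 libraries. The 9 macrophage markers summed to 154.6 to 198.4 and 173.3 to 191.3 FPKM, with 1 called in each direction. In such a mixture fewer cells of a type and less RNA per cell cannot be told apart, and the part of cell makeup in the results below was not tested. The centring on marker levels given with them shifts every row of a library alike, so it cannot separate cell makeup from RNA per cell. Read depth could not be recovered from the rounded values, so no counting interval is given.

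Of the 9 genes, 5 were lower in CCl4 libraries at an adjusted p under 0.05 (limma, adjusted over all 10995 tested rows) and 0 were higher. The lower ones were the targets Ccn2, Ccn1 and Amotl2, the transcription factor Tead1 and the kinase Lats2. Yap1, Wwtr1, Lats1 and Ankrd1 did not pass. The background was high: 31.8% of all tested rows were called, 22.2% as lower and 9.64% as higher. The median log2 fold change of the 9 genes was -0.37, against -0.09 over all tested rows. In 7 of the 9 genes the CCl4 and control libraries did not overlap, in each with CCl4 below control. That was so for 48.7% of all tested rows in either direction and for 34% with CCl4 below control. Scaling moved the balance over all rows: 30.3% of calls were higher as deposited, 12.7% after rescaling to a common sum (TPM), 21.4% without the mitochondrial rows, 47.2% with trimmed-mean (TMM) and 49.0% with median-ratio scaling. The median over all rows was -0.21 as TPM, -0.15 without mitochondrial rows and -0.02 with TMM. As TPM 8 of the 9 genes were called lower, as were 4241 of all 11005 tested rows. With TMM 4 were, beside 1707 of 10992 rows, and with median-ratio scaling 4 were, beside 1633 of 10989 rows. Centred on the cardiomyocyte markers 8 were called lower, beside 4237 of 10995 rows. Centred on the fibroblast markers, of which 6 were themselves called higher in CCl4, all 9 were, as were 9821 of the 10995 rows.

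**Figure D1:**
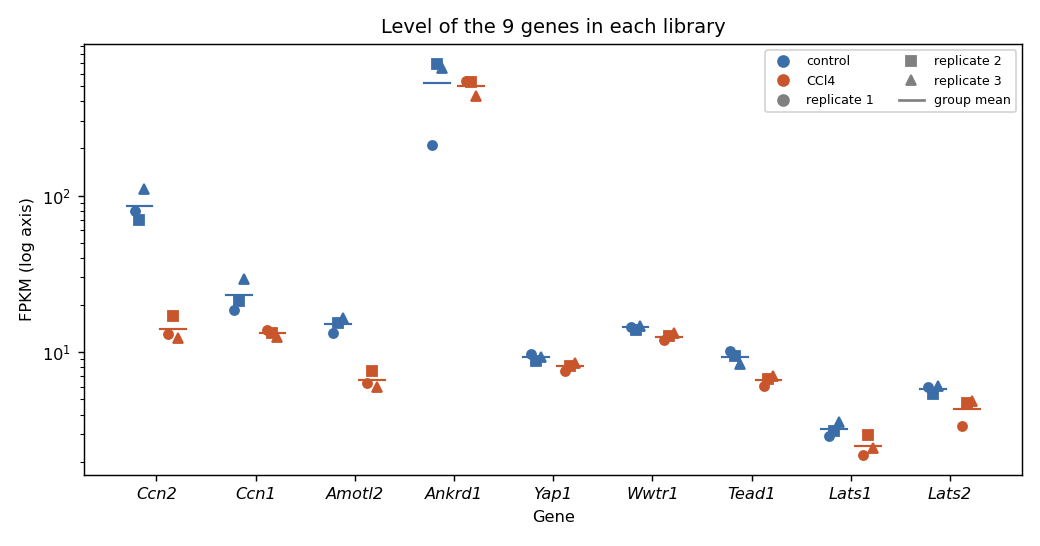
FPKM (log axis) of the 9 genes in each of the 6 libraries, with control in blue, CCl4 in orange, a marker shape per replicate number and a bar at each group mean. Ccn2 is at 70.03 to 109.4 FPKM in control libraries against 12.3 to 17.03 FPKM in CCl4 libraries, while Ankrd1 has 1 control library at 209.8 FPKM below all the others.

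Ccn2, which encodes a secreted matricellular protein that binds growth factors and integrins, had the largest difference of the 9. It was at 79.7, 70.03 and 109.4 FPKM in the control libraries and at 13.03, 17.03 and 12.3 FPKM in the CCl4 libraries. Every control library was far above every CCl4 library. The gene lies on chromosome 10 at 24595442 to 24598683 in GRCm38. Its mean fell from 86.4 ± 20.5 to 14.1 ± 2.55 FPKM (SD, n = 3 each), a ratio of 6.12 between control and CCl4 means. The log2 fold change was -2.52 ± 0.18 (SE, limma adjusted p = 0.000121). With any 1 library left out it stayed between -2.66 and -2.34. Centred on the fibroblast markers it was -3.27, and on the cardiomyocyte markers -2.71.

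Ccn1, a relative of Ccn2 that growth factors can induce, was at 18.5, 21.1 and 29.5 FPKM in control libraries and at 13.96, 13.3 and 12.6 FPKM in CCl4 libraries. The groups did not overlap, and the control libraries were spread more widely than the CCl4 libraries (coefficient of variation 24.9% and 5.28%). The gene lies on chromosome 3 at 145646976 to 145649981. Its log2 fold change was -0.73 ± 0.15 (SE, limma adjusted p = 0.00919). It was -0.54 without control replicate 3, the highest library, and still passed (adjusted p = 0.00668).

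Relative to Ccn2, the level of Ccn1 was higher in every CCl4 library than in any control library. It was 0.232, 0.302 and 0.27 times that of Ccn2 in the control libraries and 1.07, 0.783 and 1.02 times in the CCl4 libraries. This ratio is taken within a library and does not depend on scaling. The mean log2 ratio was -1.91 in control and -0.07 in CCl4 libraries (difference 1.83, two-sided exact permutation p = 0.1, the smallest that 3 against 3 libraries allow; adjusted p = 0.3 over 3 ratios). The 4 paralogs gave little to set beside them. Ccn5 was at 1.73, 2.76 and 11.9 FPKM in control libraries against 5.6, 5.23 and 4.21 FPKM in CCl4 libraries, so that control replicate 3 stood above and the other two below all CCl4 libraries (log2 fold change 0.23, limma adjusted p = 0.74). Ccn3, Ccn4 and Ccn6 had means under 1 FPKM over the 6 libraries and were not tested.

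Amotl2, whose protein binds YAP at cell junctions and is also induced by it, was at 13.3, 15.4 and 16.6 FPKM in control libraries against 6.38, 7.54 and 6.03 FPKM in CCl4 libraries. All CCl4 libraries were below all control libraries by a wide margin. The gene lies on chromosome 9 at 102716672 to 102733418. Its log2 fold change was -1.07 ± 0.11 (SE, limma adjusted p = 0.000439), and leaving out 1 library gave -1.16 to -1.01.

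Ankrd1, known as cardiac ankyrin repeat protein and abundant in strained heart muscle, was the target that did not pass. It was at 209.8, 696.4 and 652.5 FPKM in control libraries against 542.3, 528.3 and 435.4 FPKM in CCl4 libraries. Control replicate 1 was the lowest of the 6 libraries and control replicates 2 and 3 were the highest, so the control group enclosed the CCl4 group. The mean was 519.6 ± 269.2 FPKM in control and 502.01 ± 58.1 FPKM in CCl4 libraries (SD, n = 3 each). On the log2 scale the difference was 0.13 ± 0.40 (SE, limma adjusted p = 0.827), with a 95% interval of -0.80 to 1.06. Without control replicate 1 it was -0.43 ± 0.11 and passed (adjusted p = 0.0214), so direction and call both rest on that library. Without control replicate 2 it was 0.43 and without control replicate 3 0.38 (adjusted p = 0.465 and 0.525). The sign was also negative as TPM (-0.03), centred on the cardiomyocyte markers (-0.06) and centred on the fibroblast markers (-0.63). The same control library had the lowest level of Ankrd23, a muscle ankyrin repeat gene of the same family, at 45.4 FPKM against 70.8 to 91.2 FPKM in the other 5 libraries (log2 fold change between groups 0.17, limma adjusted p = 0.585). It also had the highest summed level of the cardiomyocyte markers among controls, 14207 against 12113 and 12151 FPKM. Whether these values have a part in the low Ankrd1 was not tested. The third gene of that family, Ankrd2, was at 0.03 to 0.22 FPKM and was not tested.

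**Figure D2:**
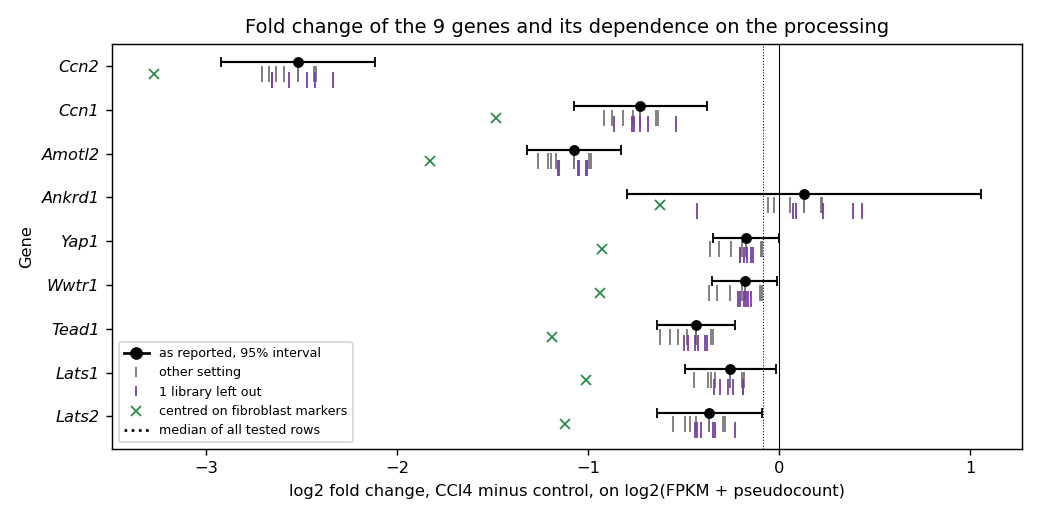
Log2 fold change (CCl4 minus control) of each gene, with the reported value and its 95% interval in black, other processing settings as grey ticks, fits with 1 library left out as purple ticks, the fit centred on fibroblast markers as a green cross and the median of all rows as a dotted line. The 8 genes other than Ankrd1 stay below 0 in every setting drawn, and Ankrd1 lies on both sides of 0.

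The coactivator genes differed less. Yap1 was at 9.68, 8.85 and 9.36 FPKM in control libraries against 7.62, 8.21 and 8.53 FPKM in CCl4 libraries. Wwtr1 was at 14.6, 13.9 and 14.7 FPKM in control libraries against 11.9, 12.6 and 13.2 FPKM in CCl4 libraries. In both genes the CCl4 libraries lay just below the control libraries without overlap. Log2 fold changes were -0.18 ± 0.08 for Yap1 and -0.18 ± 0.07 for Wwtr1 (SE, limma adjusted p = 0.109 and 0.0901), with 95% intervals of -0.35 to -0.0021 and -0.35 to -0.01. Neither passed as deposited. Both passed as TPM (adjusted p = 0.019 and 0.0139) and centred on cardiomyocyte markers (0.0237 and 0.0216), and neither did with TMM (0.318 and 0.298). Of the genes' positions, Yap1 is on chromosome 9 at 7931999 to 8004596 and Wwtr1 on chromosome 3 at 57455649 to 57575910.

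Within each library Wwtr1 was above Yap1 by nearly the same factor, 1.51, 1.57 and 1.57 in control and 1.56, 1.54 and 1.55 in CCl4 libraries. The mean ratio was 1.55 ± 0.0369 and 1.55 ± 0.0129 (SD, n = 3 each; two-sided exact permutation p = 1). The difference in mean log2 ratio lay between -0.02 and 0.01 when 1 library was left out.

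Of the 9 genes, Tead1 and Lats2 were those other than the listed targets that passed. Tead1 was at 10.1, 9.45 and 8.42 FPKM in control libraries against 6.13, 6.7 and 7.07 FPKM in CCl4 libraries. The groups did not overlap. The log2 fold change was -0.43 ± 0.09 (SE, limma adjusted p = 0.00854), from -0.50 to -0.38 with 1 library left out, and it passed in all 18 alternatives. The gene is on chromosome 7 at 112679318 to 112906807. Tead1 was the most abundant TEAD gene in every library. Tead3 was at 1.78, 2.54 and 2.22 FPKM in control libraries against 1.71, 1.67 and 1.68 FPKM in CCl4 libraries (log2 fold change -0.24 ± 0.10 (SE), limma adjusted p = 0.104). Tead2 ranged from 0.69 to 1.16 FPKM and Tead4 from 0.38 to 0.65 FPKM over the 6 libraries, and neither was tested. The TEAD cofactor Vgll4, which competes with YAP for TEAD, was at 2.13 to 2.86 FPKM in control libraries against 2.39 to 2.69 FPKM in CCl4 libraries (log2 fold change 0.02, limma adjusted p = 0.913, 95% interval -0.20 to 0.23).

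Of the kinases, Lats2 was at 5.99, 5.4 and 6.08 FPKM in control libraries against 3.38, 4.77 and 4.85 FPKM in CCl4 libraries, without overlap and with CCl4 replicate 1 the lowest. Its log2 fold change of -0.37 ± 0.12 (SE) was just past the threshold (limma adjusted p = 0.0484). The call was lost whichever library was left out (adjusted p = 0.0552 to 0.111, log2 fold change -0.44 to -0.23, the smallest without CCl4 replicate 1), with TMM (0.068) and median-ratio scaling (0.0719), without trend (0.0506), at a pseudocount of 0.1 (0.0507) and with no filter (0.134). Lats1 was at 2.9, 3.15 and 3.6 FPKM in control libraries against 2.2, 2.95 and 2.45 FPKM in CCl4 libraries, where CCl4 replicate 2 overlapped the control range. Its log2 fold change was -0.26 ± 0.10 (SE, limma adjusted p = 0.0911, 95% interval -0.50 to -0.02), and it passed as TPM (adjusted p = 0.021). Lats1 is on chromosome 10 at 7681214 to 7716460 and Lats2 on chromosome 14 at 57689662 to 57758388. Lats2 exceeded Lats1 in each library, by 2.07, 1.71 and 1.69 times in control and 1.54, 1.62 and 1.98 times in CCl4 libraries (difference in mean log2 ratio -0.09, two-sided exact permutation p = 0.5). The ratios of both groups overlapped.

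**Figure D3:**
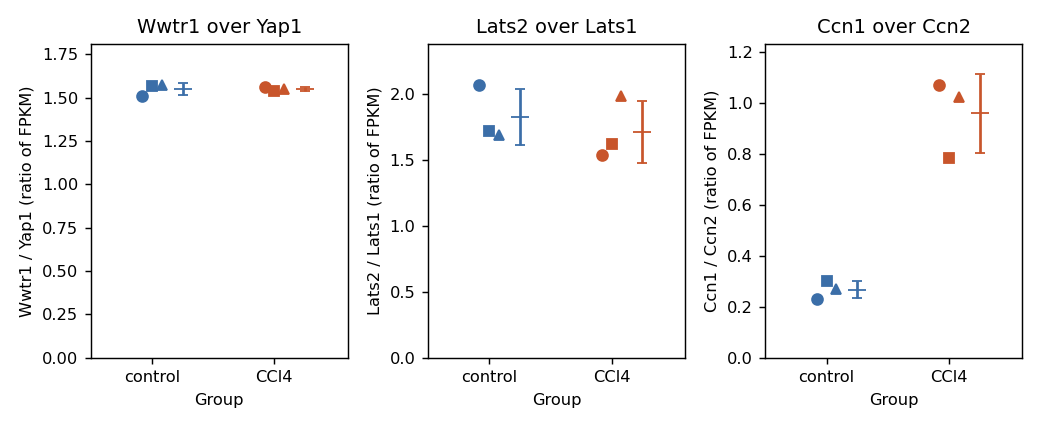
Ratio of FPKM within each library for Wwtr1 over Yap1, Lats2 over Lats1 and Ccn1 over Ccn2, with points for the libraries and mean ± SD (n = 3) beside them. The first ratio is 1.51 to 1.57 in all 6 libraries, and the third is 0.232 to 0.302 in control and 0.783 to 1.07 in CCl4 libraries.

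Since FPKM is scaled per length, the levels of the 9 genes can be put in order. In control libraries Ankrd1 was highest, followed by Ccn2, Ccn1, Amotl2, Wwtr1, Tead1, Yap1, Lats2 and Lats1. The ranges of Amotl2 and Wwtr1 overlapped there, as did those of Tead1 and Yap1. In CCl4 libraries the ranges of Ccn2, Ccn1 and Wwtr1 overlapped, at 12.3 to 17.03, 12.6 to 13.96 and 11.9 to 13.2 FPKM. Amotl2 and Tead1 also shared a range there, below Yap1. Among all tested rows, the mean level of Ankrd1 stood at percentile 99.4, that of Ccn2 at 95.1 and that of Lats1 at 34.9.

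Within a group the same libraries were often the extreme ones. Control replicate 3 was the highest control library for 6 of the 9 genes (Ccn1, Ccn2, Amotl2, Wwtr1, Lats1 and Lats2). CCl4 replicate 3 was the lowest CCl4 library for all 4 targets, and CCl4 replicate 1 was the lowest for the other 5 genes. Control replicate 3 also had the highest summed level of the fibroblast markers (778.6 FPKM) and of 27 immediate early genes (585.95 FPKM, against 394.1 and 397.5 FPKM in the other control libraries). Their part in these levels was not tested.

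The other genes of the pathway were taken from lists of known components and targets. Of 25 tested Hippo kinases and regulators 7 were called lower and 1 higher, with a median log2 fold change of -0.14 against -0.09 over all rows, and a share of lower genes near the background of 22.2%. Limd1, a LIM protein that binds LATS kinases, fell from 15.2 ± 0.779 to 7.57 ± 1.02 FPKM (SD, n = 3 each; log2 fold change -0.92, limma adjusted p = 0.000657). Its control libraries were at 15.8, 15.5 and 14.3 FPKM and its CCl4 libraries at 6.41, 7.96 and 8.34 FPKM. The kinases Map4k4 and Map4k2, which can phosphorylate LATS, fell by 0.47 and 0.39 on the log2 scale (limma adjusted p = 0.00632 and 0.0193). Slmap and Strn, subunits of the STRIPAK phosphatase complex that acts on the upstream kinases, fell by 0.42 and 0.30 (limma adjusted p = 0.0138 and 0.0227). Wwc2, of the KIBRA family, and the scaffold Sav1 fell by 0.33 and 0.32 (limma adjusted p = 0.0246 and 0.043). The 1 rise was Dchs1, an atypical cadherin, from 0.897 ± 0.27 to 1.69 ± 0.127 FPKM (log2 fold change 0.51, limma adjusted p = 0.0123). Its control mean was under 1 FPKM, so it reached the filter only through the CCl4 libraries, where it was high. The core kinases Stk3 and Stk4 had log2 fold changes of -0.04 and -0.24 (limma adjusted p = 0.735 and 0.12), and Nf2 (merlin) 0.02 (adjusted p = 0.875). The count of lower genes was 3 without control replicate 2, CCl4 replicate 1 or CCl4 replicate 3. Over all rows 1685 of 11003, 1777 of 11016 and 1549 of 11014 were then called lower, against 2441 of 10995 as reported. The count on this list was 12 as TPM, where 4241 of 11005 rows were called lower. With no filter it was 3, with 0 higher, beside 1796 of 27449 rows called lower. With median-ratio scaling it was 4, with 3 higher, and with TMM 5, with 2 higher. Wwc1, Taok3 and Fat4 had means under 1 FPKM and were not tested.

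Of 17 other reported YAP targets, 11 were tested, of which 3 were called lower and 1 higher (median log2 fold change -0.17). The lower share is near that of the background (22.2%). Igfbp3, a secreted IGF-binding protein, was at 15.2, 17.01 and 29.3 FPKM in control libraries against 6.87, 6.49 and 8.59 FPKM in CCl4 libraries (log2 fold change -1.32 ± 0.22 (SE), limma adjusted p = 0.00376). Nt5e, the ecto-nucleotidase CD73 that makes adenosine, was at 3.3, 3.1 and 3.51 FPKM in control libraries against 1.04, 1.4 and 1.23 FPKM in CCl4 libraries (-0.95 ± 0.09 (SE), limma adjusted p = 0.000326). In neither gene did the groups overlap. Ptpn14, a phosphatase that binds YAP, fell by 0.47 (limma adjusted p = 0.00607). Gadd45a, a DNA damage and stress gene also induced by p53, went the other way, from 4.89, 4.25 and 2.64 FPKM in control to 8.26, 7.56 and 6.81 FPKM in CCl4 libraries (0.82 ± 0.17 (SE), limma adjusted p = 0.00848). Axl, a receptor tyrosine kinase, was at 16.02 ± 3.05 and 15 ± 1.4 FPKM (SD, n = 3 each; -0.08, limma adjusted p = 0.672), and Crim1 had -0.28 (limma adjusted p = 0.0534). As TPM 6 of the list were called lower, beside 4241 of 11005 rows. Without the mitochondrial rows 5 of 15 tested were, beside 3227 of 12984 rows. Without control replicate 3 a second gene was called higher. The 6 genes with means under 1 FPKM were Myof, Fjx1, Foxf2, Dock5, Nuak2 and Rbms3.

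**Figure D4:**
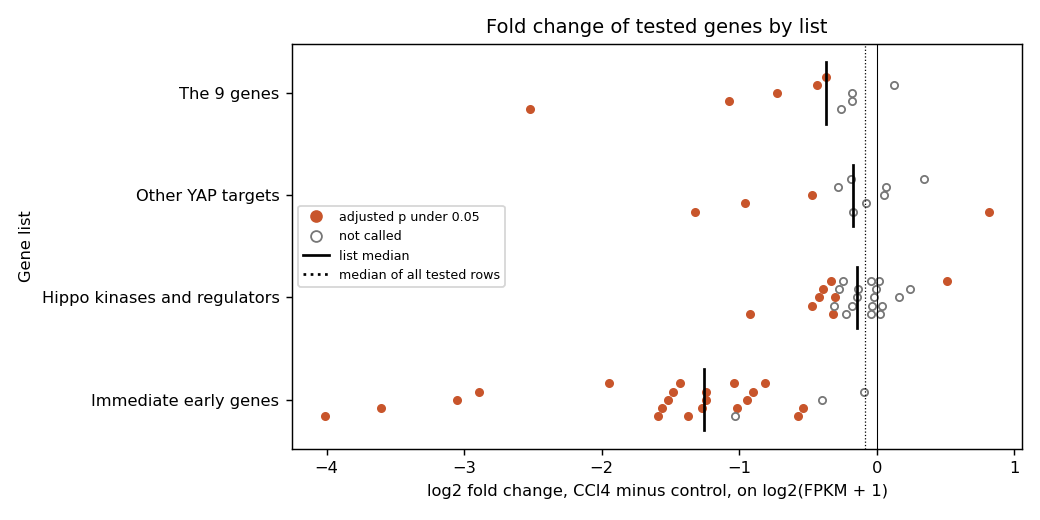
Log2 fold change (CCl4 minus control) of each tested gene in 4 lists, with called genes filled, list medians as bars and the median of all rows as a dotted line. Immediate early genes lie furthest to the left with a median of -1.26, and the Hippo kinases and regulators lie around a median of -0.14.

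Ccn1 and Ccn2 are also immediate early genes, which growth factors and stress switch on within minutes. Of 24 tested genes of a separate immediate early list 21 were called lower and 0 higher, beside 22.2% and 9.64% of all tested rows. The median log2 fold change of the list was -1.26, against -0.09 over all tested rows. Fosb, Egr2 and Egr3, also on the list, had means under 1 FPKM and were not tested. The summed level of the list was 394.1 to 585.95 FPKM in control libraries against 151.5 to 158.8 FPKM in CCl4 libraries. Zfp36, which destabilises mRNAs, fell by 1.95 on the log2 scale, and the transcription factor Csrnp1 by 1.59 (limma adjusted p = 7.72e-05 and 0.000103). Btg2, an antiproliferative gene, was at 45.3, 46.1 and 82.96 FPKM in control libraries against 5.13, 7.15 and 5.42 FPKM in CCl4 libraries (-3.05, limma adjusted p = 0.000139). In Atf3, a stress transcription factor, the control libraries ran from 11.5 to 42.6 FPKM and the CCl4 libraries from 0.72 to 1.17 FPKM (-3.61, limma adjusted p = 0.000518). Atf3, Fos, Myc and Nr4a2, all called, and Nr4a3, not called, had CCl4 means of 0.17 to 0.88 FPKM. These genes reached the filter of 1 FPKM only through the control libraries, where they were high. Ccn1, Ccn2 and Amotl2 were thus low in the same libraries as these genes, and the part of the one in the other was not tested.

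Likeness of pattern was measured by Pearson's r of log2(FPKM + 1) over the 6 libraries. It is a description, since all genes share the libraries and any gene with a large difference between the groups scores high. The nearest to Ccn2 were Gstm2 (r = 0.999), a glutathione transferase, Scd4 (0.999), a fatty acid desaturase, and Vps54 (0.997). Scd4 was at 7.28, 7 and 12.2 FPKM in control libraries against 0.43, 0.75 and 0.35 FPKM in CCl4 libraries. It reached the filter of 1 FPKM only through the control libraries, where it was high. The nearest to Ccn1 were Fosl2 (0.997), an AP-1 subunit, Lrrfip1 (0.997) and the collagen crosslinking oxidase Lox (0.995). Those nearest to Amotl2 were H6pd (0.999), Slc3a2 (0.997) and Slc43a3 (0.997). For Ankrd1 they were BC029722 (0.966), Chd9 (0.966) and Ankrd23 (0.963), which share its low value in control replicate 1. Among the members, r was 0.988 between Ccn2 and Amotl2, 0.983 between Yap1 and Wwtr1, and -0.07 between Ankrd1 and Ccn2.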

How the data were processed

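RNA sequencing libraries of 6 mice, 3 control and 3 CCl4, were compared. The authors deposited FPKM values, 1 column per library, made with StringTie 2.1.6 on GRCm38, per the submitters' processing notes. Per the labels' protocols, mRNA was captured on oligo(dT) beads and the libraries keep strand. The aligner, annotation release, filters and strand setting were not given in the sources used here. FPKM sums ranged from 519610 to 542740 in control libraries and from 588660 to 602760 in CCl4 libraries, without overlap. Depth was estimated from low values of short single-exon genes, but gave 19500000 to 40700000 fragments with 21.4% to 39.0% of values within 0.1 of a whole fragment, where 20% of evenly spread values would be, so depth is taken as unknown.

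Values were transformed to log2(FPKM + 1), which understates fold changes of low genes. Rows with a mean of at least 1 FPKM were fitted with limma 3.58.1 in R 4.3.3 (trend, two-sided, no covariate), with Benjamini-Hochberg adjustment over all rows. The script was tested on simulated data. Ratios within libraries were compared by exact permutation. The 9 genes and all lists were chosen with earlier results of these data known. Named were all 9 genes, their paralogs, called genes and the smallest p-values of the lists, and the 3 rows most like each target; of the immediate early genes a few are given, and Atf3, Axl, Crim1, Stk3, Stk4, Nf2 and Nnt were chosen after their values were seen; 1 further list is not reported here. Positions are from GENCODE M21, promoters from RefSeq. Same-numbered libraries did not deviate together.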

Additional observations from a re-analysis of the deposited data

How the results depend on the processing

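Over 18 alternatives (17 for Lats1, which falls below a mean of 5 FPKM) Ccn2, Ccn1, Amotl2 and Tead1 kept their direction and stayed past the threshold, at -3.27 to -2.34, -1.48 to -0.54, -1.83 to -0.99 and -1.19 to -0.35. The number of the 9 genes called lower was 8 as TPM, 9 centred on fibroblast markers and 8 centred on cardiomyocyte markers, and 4 to 5 with 1 library left out. Lower calls over all rows numbered 4241 as TPM, 9821 centred on fibroblast markers and 4237 centred on cardiomyocyte markers. With 1 library left out they numbered 1549 to 2108, against 2441 as reported. None of the alternatives called any of the 9 higher with limma.

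Ankrd1 turned to -0.0267 as TPM, -0.63 centred on fibroblast markers and -0.0599 centred on cardiomyocyte markers, and was -0.43 to 0.43 with 1 library left out (-0.43 without control replicate 1). Yap1 passed as TPM (-0.32), centred on fibroblast markers (-0.93) and on cardiomyocyte markers (-0.36). Wwtr1 passed in the same settings (-0.33, -0.94 and -0.37) and without mitochondrial rows (-0.26), and Lats1 passed at -0.37, -1.01 and -0.45. Lats2 missed the threshold at a pseudocount of 0.1 (-0.43), with no filter (-0.37), with TMM (-0.29), with median-ratio scaling (-0.29), without trend (-0.37), with the replicate block (-0.37) and with 1 library left out (-0.44 to -0.23). The log2 ratio of Wwtr1 over Yap1 differed between groups by 8.17e-05 and turned to -0.00661 at a pseudocount of 1 and to between -0.02 and 0.01 with 1 library left out (-0.0199 to 0.0113). The cause was not tested, except that leaving libraries out also leaves fewer of them. Centring shifts every row of a library alike, so its calls follow the markers.

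Replicate numbers are shared by the groups, but deviations from the group means of same-numbered libraries correlated at -0.064, 0.0461 and -0.038 over 10995 rows, so the numbers were not taken as pairs. With the replicate block, 2651 rows were called in place of 3501, and of the 9 genes 4 were called lower. Depth is unknown, which limits what can be said of genes near 1 FPKM.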
